A study of Mus musculus with 5 samples.

Results

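Csk and 9 genes that flank it on mouse chromosome 9 (Ppcdc, Rpp25, Mpi, Scamp2, Ulk3, Edc3, Clk3, Arid3b and Sema7a) were followed through RNA sequencing of germinal centre light zone B cells. The 10 genes were taken by symbol from the 23234 genes of the deposited table, as the floxed gene of the study and named genes of its chromosome neighbourhood. All 10 were present and all 10 reached an FPKM of 1 (fragments per kilobase of transcript, scaled to library size) in at least 2 libraries, the filter that left 10242 genes for testing.

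The 5 libraries divide by label into Csk(+/+), with 3, and Csk(f/f), with 2. Each came from about 10000 donor cells that bound NP and were sorted as light zone cells from spleen on day 11, and bulk RNA of this kind cannot tell fewer cells of a type from less RNA per cell. The donor naive B cells of both groups were ERT2cre(KI/+), which gives a Cre that tamoxifen activates, and B1-8hi(KI/+), a heavy chain knock-in with affinity for the hapten NP, and carried CD45.1/2. They differed in being Csk(+/+) or Csk(fl/fl), and were transferred into C57BL/6J hosts. NP-CGG in alum was injected into the peritoneum on day 0 and tamoxifen was given on days 8 and 9 to the hosts of both groups, so the controls shared the Cre and the drug. The study asked how BCR signalling, the signal from the B cell receptor, bears on selection in the germinal centre. The design text calls the libraries biological replicates, and the labels do not say whether each came from 1 mouse or from pooled mice. In what follows the Csk(+/+) libraries are called controls and those labelled Csk(f/f) the floxed-labelled libraries, since their genotype is known from the label alone.

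Csk is a cytoplasmic kinase. It adds a phosphate to a tyrosine in the tail of Src family kinases, which holds them inactive, and in B cells it thereby restrains Lyn, Fyn and Blk and the BCR signal they start. A conditional allele carries loxP sites around some exons of a gene, and Cre removes only those exons. RNA transcribed from the rest of the gene can still be sequenced and counted. Genes close to a targeted locus are inherited with it, which is why a targeted gene is often read beside its neighbours.

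In the RefSeq annotation of GRCm38.p6 Csk has 2 transcription starts on the minus strand of chromosome 9, and a gene-level value does not separate them. The stretches of 250 bases before each start are printed because the Csk values below do not say which start was used. Whether those values cover both starts is not known, since the annotation behind them is not given. CG dinucleotides are in capitals. The outer start lies at the 5′ end of the gene (chr9:57653632-57653881, minus strand, GRCm38.p6) and the inner start inside it (chr9:57645654-57645903, minus strand, GRCm38.p6).
Csk outer start: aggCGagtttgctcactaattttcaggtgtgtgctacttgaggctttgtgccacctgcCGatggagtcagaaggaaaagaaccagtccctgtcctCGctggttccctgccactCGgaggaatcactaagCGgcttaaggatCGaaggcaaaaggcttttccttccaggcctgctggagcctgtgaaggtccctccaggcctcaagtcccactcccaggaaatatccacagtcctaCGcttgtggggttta
Csk inner start: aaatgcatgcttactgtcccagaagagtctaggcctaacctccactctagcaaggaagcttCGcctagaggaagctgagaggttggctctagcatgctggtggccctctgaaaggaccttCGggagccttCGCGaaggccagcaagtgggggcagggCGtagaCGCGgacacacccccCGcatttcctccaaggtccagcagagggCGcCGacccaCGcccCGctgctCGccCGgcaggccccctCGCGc
The outer stretch held 7 CG dinucleotides and 54% G or C, and the inner one 16 and 64%, where 32851 RefSeq stretches of the same length had medians of 6 and 52.4%. Both strands were searched for the GC box (GGGCGG), an ETS core (CCGGAAG), the CCAAT box and TATAAA, which occur in 32.7%, 6.91%, 33.8% and 12.4% of those stretches. Neither Csk stretch held any of these letters, which says nothing about which factors bind there.

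Rpp25 and Sema7a are shown beside Csk because the first had the lowest level and the largest group difference of the 10 genes, and the second had the highest level after Csk. For Rpp25 only the 174 bases outside its annotated untranslated region are given (chr9:57503852-57504025, plus strand, GRCm38.p6), and for Sema7a the full stretch (chr9:57939862-57940111, plus strand, GRCm38.p6).
Rpp25: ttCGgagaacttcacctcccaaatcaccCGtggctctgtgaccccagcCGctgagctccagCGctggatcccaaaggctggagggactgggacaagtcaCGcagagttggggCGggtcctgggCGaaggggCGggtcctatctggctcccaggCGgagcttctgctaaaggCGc
Sema7a: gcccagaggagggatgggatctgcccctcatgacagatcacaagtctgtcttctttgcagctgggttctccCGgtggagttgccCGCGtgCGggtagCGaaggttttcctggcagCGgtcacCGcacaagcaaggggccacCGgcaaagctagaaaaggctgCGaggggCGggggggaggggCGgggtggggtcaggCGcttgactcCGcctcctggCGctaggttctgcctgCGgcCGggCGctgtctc
The stretches before the Rpp25 and Sema7a starts each held 2 GC boxes.

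The libraries matched their labelled cell type. Of 8 listed germinal centre B cell markers 7 were in the table, all at a mean FPKM of at least 1, with a summed FPKM of 807 to 853 in the controls and 823 to 838 in the floxed-labelled libraries. The 7 T cell markers summed to 6.24 to 7.45 FPKM in the controls and 7.67 to 10.3 in the floxed-labelled libraries, a shift carried by Lat, while Cd3e and Cd3g were listed at 0 in every library and Cd3d, Cd4, Cd8a and Cd28 stayed below 1 FPKM. The 4 erythroid markers summed to 140 to 783 and 100 to 380 FPKM, whose part in the results was not tested. Light zone markers summed to 1040 to 1090 FPKM in the controls and 1300 to 1330 in the floxed-labelled libraries, and dark zone markers to 130 to 134 and 114 to 120. The summed macrophage markers moved with the groups as well, from 2.69 to 8.62 up to 11.3 to 13.3 FPKM, mostly through Lyz2, while Csf1r, Emr1, Cd14, C1qa and C1qb each stayed below 1 FPKM. The plasma cell list (80.7 to 93.9 and 102 to 117) moved through Xbp1, while Sdc1 and Prdm1 stayed below 1 FPKM. The part of these shifts in the results was not tested. The depth per library was read from the spacing of the lowest FPKM values and lay at about 9.52 to 23.5 M fragments. Across all tested genes the group difference followed the GC content of the transcript (Spearman rho of 0.712 across genes, which are not independent replicates), so each difference below is given as deposited and after a correction for this trend. Control replicate 3 had the lowest array weight (0.259, the others 1.35 or more), and results that rest on it are given without it.

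Csk was by far the most abundant of the 10 transcripts, and its level as deposited was not lower in the floxed-labelled libraries. After the GC correction given below both floxed-labelled values lay narrowly below every control, with a difference that did not pass the test. Control replicates 1, 2 and 3 had a Csk FPKM of 378, 436 and 415, and floxed-labelled replicates 1 and 2 had 453 and 476. Both values of the floxed-labelled group lay above all 3 control values, and the groups did not overlap. The means were 410 ± 29.3 (SD, n = 3) and 464 ± 15.9 (SD, n = 2), a log2 difference of 0.18 ± 0.14 (SE) with a limma adjusted p of 0.439. The 95% interval of the fold ran from 0.91 to 1.42. Exact permutation of the 5 FPKM values, two-sided, gave p = 0.2, and its 10 splits cannot give a p below 0.1.

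The rank of Csk varied little. By FPKM it stood at place 218, 192 and 227 of 10242 tested genes in the controls and at place 197 and 187 in the floxed-labelled pair. Its share of the summed FPKM of all genes was 0.0598%, 0.0681% and 0.0543% in the controls and 0.0632% and 0.0703% in the floxed-labelled libraries, so the groups overlapped on this scale. Set against the sum of the 9 flanking genes, Csk gave ratios of 1.66, 1.71 and 2.44 in the controls and 1.94 and 1.79 in the floxed-labelled libraries. By this ratio both floxed-labelled libraries lay inside the control range, whose upper end came from control replicate 3. Without that replicate both lay above the controls left, at 1.66 and 1.71.

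The Csk transcript is rich in GC, with 60.1% G or C in its longest annotated form, more than 96.2% of tested genes. After the GC correction its values on the log2(FPKM + 1) scale were 8.70, 8.78 and 8.94 in the controls against 8.66 and 8.67 in the floxed-labelled pair. The groups again did not overlap, now with the floxed-labelled libraries below the controls, by a narrow margin between 8.67 and 8.70. The corrected log2 difference was -0.14 ± 0.16 (SE, limma adjusted p = 0.818), and the 95% interval of the fold was 0.701 to 1.17. It was -0.08 when control replicate 3, the highest of the corrected values, was left out as well. A fold of 0.5 lies outside the interval in both forms, for the transcript as summed over the whole gene. The labels do not name the floxed exons and no exon-level value was analysed here, so the genotype of these libraries is not checked by this value and the groups are named by their labels.

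**Figure D1:**
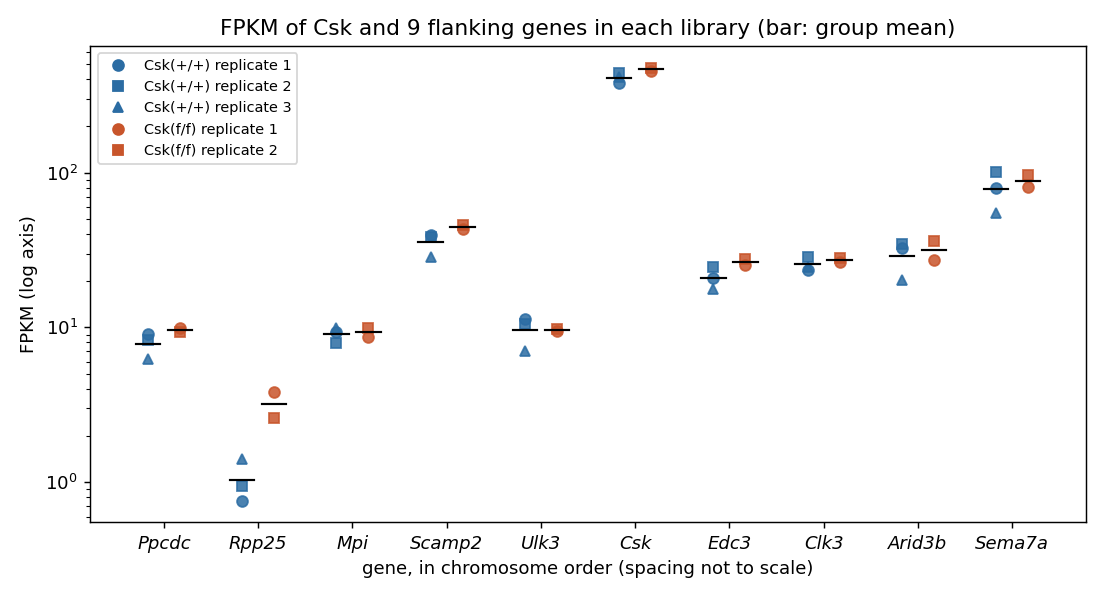
FPKM (log axis) of Csk and the 9 flanking genes, in chromosome order. Each point is 1 library, blue for Csk(+/+) (n = 3) and orange for Csk(f/f)-labelled (n = 2), with the marker shape giving the replicate number and the black bar the group mean. Csk lies between 378 and 476 and Rpp25 between 0.762 and 3.83.

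The 10 genes spanned a wide range of levels, and since FPKM is per length these can be set side by side. Over the 5 libraries mean FPKM fell from Csk (432) to Sema7a (82.3), Scamp2 (39.1), Arid3b (30.2), Clk3 (26.2), Edc3 (23.2), Ulk3 (9.66), Mpi (9.19), Ppcdc (8.56) and Rpp25 (1.91). The steps from Csk to Sema7a (5.24 times), Sema7a to Scamp2 (2.11), Edc3 to Ulk3 (2.41) and Ppcdc to Rpp25 (4.48) were larger than the spread over libraries, with ranges that did not overlap. The ranges of neighbours overlapped from Scamp2 through Arid3b and Clk3 to Edc3, and from Ulk3 through Mpi to Ppcdc. Within libraries, Scamp2 was nevertheless above Arid3b and Clk3 above Edc3 in 5 of 5, and Arid3b above Clk3 in 4 of 5. Ulk3 was above Mpi, and Mpi above Ppcdc, in 3 of 5.

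Rpp25, which encodes a protein subunit of the RNA-processing enzymes RNase P and RNase MRP, showed the largest group difference of the 10. Its FPKM was 0.762, 0.946 and 1.42 in the controls against 3.83 and 2.59 in the floxed-labelled pair. Both floxed-labelled values lay above all controls, and they differed from each other by 1.47 times. The means were 1.04 ± 0.342 (SD, n = 3) and 3.21 ± 0.87 (SD, n = 2), with a log2 difference of 1.04 ± 0.23 (SE) on the log2(FPKM + 1) scale, which understates the change of a gene at this level. Its limma unadjusted p was 0.0024 and its adjusted p 0.154, so it did not pass over all genes tested. Of all tested genes 0.488% had a larger difference in the same direction. The floxed-labelled pair, where Rpp25 is high, would alone have met the filter, so this p and this rank give no support to a difference.

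The Rpp25 values rest on few fragments, about 17, 26 and 24 in the controls against about 130 and 35 in the floxed-labelled pair. Counting alone gives such numbers a relative SD of 24%, 20% and 20% and of 8.8% and 17%. Rpp25 is also rich in GC (59.1%), and its log2 difference fell to 0.73 ± 0.25 (SE) after the GC correction, with a limma adjusted p of 0.445 and groups that still did not overlap. Without control replicate 3 the difference was 1.17 and the adjusted p 0.0386 by limma, a call made for 1 of the 10 genes and for 4.05% of tested genes. The controls left, 0.762 and 0.946, are both below 1 FPKM, so Rpp25 entered that fit only through the floxed-labelled libraries, where it is high, and the call gives no support to a difference. With all 5 libraries and no filter the adjusted p was 0.272 by limma. With array weights, which count that replicate less, the adjusted p was 0.0259 by limma, and 6.55% of tested genes passed. In the fits of all 5 libraries only control replicate 3 of the controls reached 1 FPKM, and the floxed-labelled pair alone would have met the filter. The call with array weights thus gives no support to a difference either. With the GC correction and without control replicate 3 the log2 difference was 0.91 with a limma adjusted p of 0.0999. Rpp25 overlaps no other annotated gene.

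Of the genes that act on RNA, Edc3 and Clk3 are neighbours on the other side of Csk. Edc3, an activator of mRNA decapping, had FPKM of 20.9, 24.4 and 17.7 in the controls against 25.3 and 27.8 in the floxed-labelled pair. The groups did not overlap, with control replicate 2 close below the lower floxed-labelled value. Its log2 difference was 0.34 ± 0.17 (SE, limma adjusted p = 0.283), 0.24 ± 0.13 after the GC correction and 0.22 without control replicate 3. Clk3, a kinase that phosphorylates SR splicing factors, had 23.4, 28.5 and 24.7 FPKM in the controls and 26.5 and 27.9 in the floxed-labelled libraries. The floxed-labelled values lay within the control range, and Clk3 had the smallest spread of the 10 genes, 1.22 times from the lowest to the highest library. Its difference was 0.09 ± 0.14 (SE) and -0.06 after the correction. Exons of Edc3 and Clk3 overlap on opposite strands in the GRCm38 annotation, as do those of Arid3b and the antisense gene Gm17231. Whether the counting used strand is not stated in the sources used here, so reads in the shared bases cannot be assigned with certainty.

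Sema7a and Arid3b lie furthest on that side. Sema7a, a semaphorin anchored to the cell surface by a lipid, had FPKM of 79.8, 101 and 54.5 in the controls and 80.1 and 96.1 in the floxed-labelled libraries. The controls alone ranged over 1.85 times and enclosed both floxed-labelled values. Arid3b, a DNA-binding protein of the AT-rich interaction domain family, had 32.5, 34.5 and 20.1 in the controls and 27.4 and 36.3 in the floxed-labelled libraries. Here too the groups overlapped, and in both genes the lowest value was that of control replicate 3. The log2 differences were 0.20 ± 0.24 (SE) for Sema7a and 0.15 ± 0.25 for Arid3b. Without that replicate they turned to -0.03 and -0.09, and with the GC correction to -0.09 and -0.06.

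On the Ulk3 side of Csk, Scamp2 and Ulk3 follow first. Scamp2, a membrane protein of secretory and recycling vesicles, had FPKM of 39.6, 38.6 and 28.5 in the controls and 42.9 and 45.9 in the floxed-labelled libraries. The groups did not overlap, and the log2 difference was 0.33 ± 0.17 (SE, limma adjusted p = 0.297). It was 0.18 without control replicate 3 and 0.16 after the GC correction, which ended the separation of the groups. Ulk3, a serine/threonine kinase linked to autophagy and hedgehog signalling, had 11.4, 10.6 and 7.08 FPKM in the controls and 9.43 and 9.78 in the floxed-labelled libraries. Its floxed-labelled values lay inside the control range, with a difference of 0.01 ± 0.22 (SE), -0.18 without control replicate 3 and -0.19 after the correction.

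Mpi and Ppcdc encode metabolic enzymes. Mpi, the mannose phosphate isomerase that links glycolysis to protein glycosylation, had FPKM of 9.41, 7.96 and 9.98 in the controls and 8.67 and 9.91 in the floxed-labelled libraries. The groups overlapped, and the log2 difference was 0.03 ± 0.18 (SE) as deposited and -0.09 after the GC correction. Ppcdc, a decarboxylase of coenzyme A synthesis, had 9.07, 8.29 and 6.27 FPKM in the controls and 9.90 and 9.28 in the floxed-labelled libraries. Its groups did not overlap, by a narrow margin between 9.07 and 9.28. The difference was 0.27 ± 0.20 (SE, limma adjusted p = 0.438), the same after the correction, and 0.13 without control replicate 3.

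**Figure D2:**
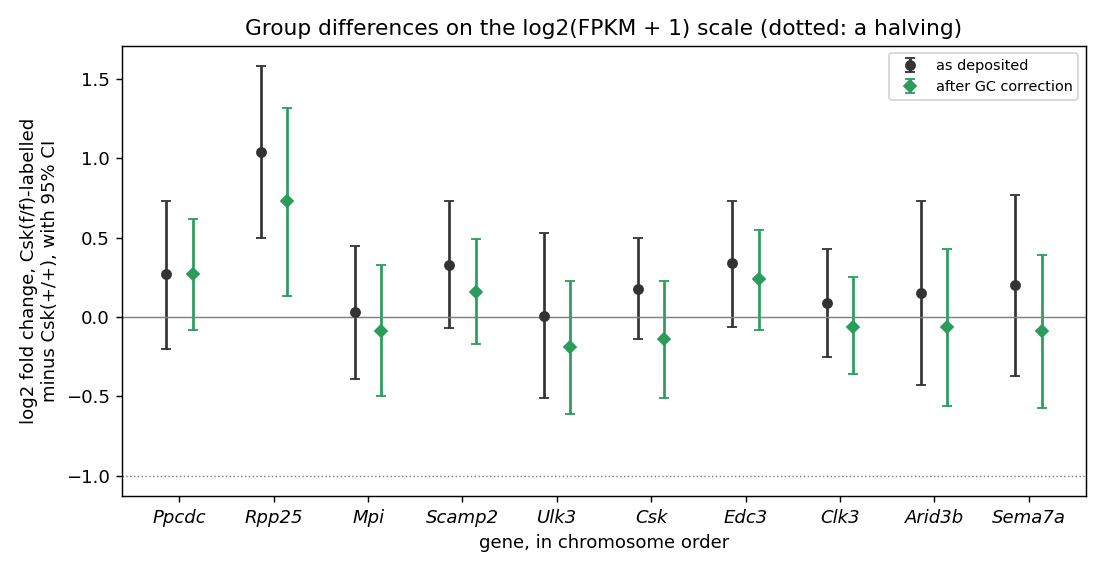
Log2 fold change, Csk(f/f)-labelled minus Csk(+/+), on the log2(FPKM + 1) scale with its 95% interval from limma, as deposited (black circles) and after the GC correction (green diamonds). The interval of Rpp25 alone lies above 0, from 0.50 to 1.58 as deposited, and none reaches the dotted line that marks a halving. Rpp25 would have met the filter through the floxed-labelled pair alone, so its interval gives no support to a difference.

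By limma 0 of the 10 genes passed at an adjusted p under 0.05, where 0.0781% of tested genes did, and 0 passed after the GC correction, where 0.0791% did. At a limma unadjusted p under 0.05 there was 1, Rpp25, where 21.7% of tested genes reached it. After the correction it was again only Rpp25, where 9.96% did. Rpp25 would have met the filter through the floxed-labelled pair alone, so these calls give no support to a difference. All 10 differences were positive as deposited, with a median of 0.19, beside 48.7% positive and a median of -0.01 over all tested genes. After the GC correction 4 were positive (50.2% of tested genes), the median was -0.06, and 6 had changed sign. The groups did not overlap in 5 of the 10, all higher in the floxed-labelled libraries, where 20.7% of tested genes were separated in that direction, 24.5% in the other and 45.1% in either. After the correction 3 were separated as higher (Rpp25, Edc3 and Ppcdc) and 1, Csk, as lower, with 14.6% and 13.9% of tested genes separated in these directions and 28.5% in either.

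Control replicate 3 was the lowest library for 6 of the 10 genes (Ulk3, Scamp2, Edc3, Arid3b, Sema7a and Ppcdc), where it was the lowest for 35.7% of tested genes. Neither floxed-labelled library was the lowest for any of the 10, where replicate 1 was for 13.8% of tested genes and replicate 2 for 25.9%. Floxed-labelled replicate 2 was the highest for 4 of the 10 and for 24.4% of tested genes. The median deviation of control replicate 3 over the 10 from each gene's own mean was -0.37 on the log2 scale, and -0.21 after the GC correction. The other libraries had medians of 0.01 to 0.19 as deposited and of -0.06 to 0.06 after the correction. Csk, Mpi, Rpp25 and Clk3 departed from this pattern. In control replicate 3 the corrected deviation of Csk was 0.19 and that of Mpi 0.27, both the highest of their 5 libraries.

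**Figure D3:**
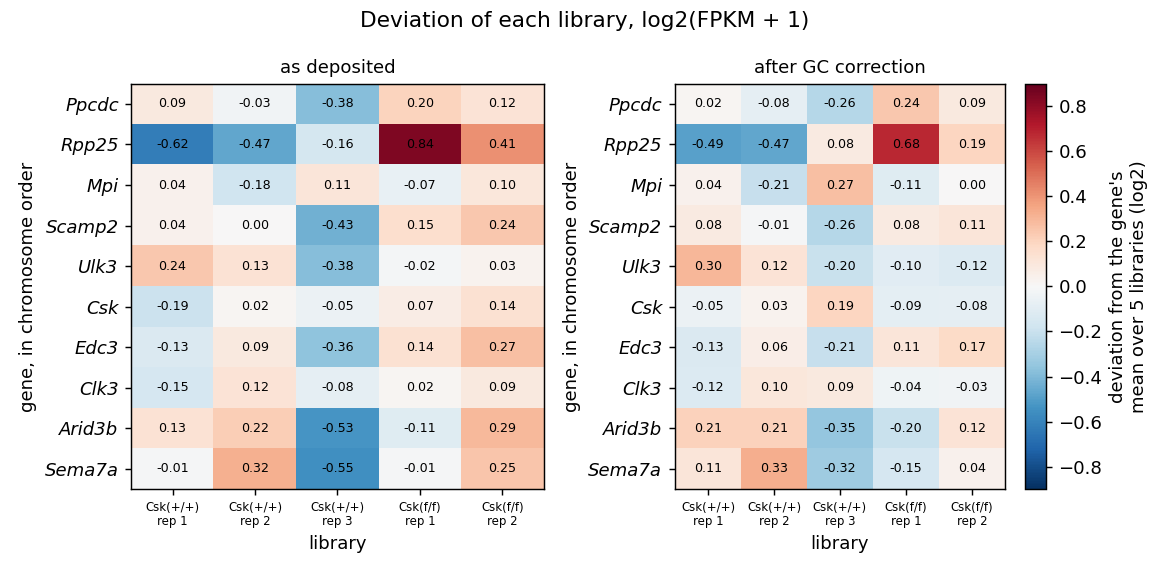
Deviation of each library from the gene's mean over the 5 libraries, on the log2(FPKM + 1) scale, as deposited (left) and after the GC correction (right). Each cell gives its value, red above and blue below the mean. Control replicate 3 is blue for most genes, down to -0.55 for Sema7a, while Rpp25 runs from -0.62 to 0.84.

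Over libraries Csk varied in step with Clk3 more than with its other neighbours. Across the 5 libraries the Pearson correlation of Csk with Clk3 was 0.844 on the log2(FPKM + 1) scale, with Rpp25 0.763 and with Edc3 0.738. It was -0.16 with Ulk3 and -0.0944 with Mpi, although Ulk3 is the nearest tested gene on its side. These values describe 5 libraries that share their depth and GC trend between genes, and after the correction they ran from -0.985 with Scamp2 to 0.709 with Clk3. The genes with library profiles most like Csk were sought over the whole genome. Among 6022 protein-coding genes at an FPKM of at least 5 in every library, the smallest root-mean-square differences from the deviations of Csk were those of Parvg (0.0165), Rac2 (0.0167), Slc25a11 (0.0193), Xrcc1 (0.0244) and Vps8 (0.025). Rac2, a small GTPase of blood cells, had FPKM of 325, 368 and 355 in the controls and 377 and 400 in the floxed-labelled libraries. In the same order Clk3 was at place 110, the nearest of the flanking genes.

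The rest of the neighbourhood was described from a list of 27 further genes around Csk, of which Fam219b is named 2310046O06Rik in the table. Only 14 of the 27 passed the filter. The genes directly beside Csk were among those that did not: Cplx3 and Lman1l on the Ulk3 side and Cyp1a1 and Cyp1a2, cytochrome P450 genes induced through the aryl hydrocarbon receptor, on the Edc3 side. Their highest FPKM in any library was 0.0604 for Cplx3, 0.0505 for Lman1l, 0.096 for Cyp1a1 and 0.0687 for Cyp1a2. Csk thus stood at 378 FPKM or more between genes that were near 0 in all 5 libraries.

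By limma 0 of the 14 tested genes of this list passed over all genes, while 2 had an unadjusted p under 0.05 in the higher direction and 0 in the lower, where 8.07% and 13.6% of tested genes did. After the GC correction 1 of the 14 reached this unadjusted threshold, Cox5a, in the higher direction, beside 9.96% of tested genes in either direction. Its log2 difference was 0.10 as deposited and 0.51 after the correction (limma adjusted p = 0.447). The 4 with the smallest p as deposited were Neil1, Man2c1, Snupn and Ube2q2. Neil1, a DNA glycosylase of base excision repair, had FPKM of 203, 222 and 220 in the controls and 283 and 306 in the floxed-labelled libraries, with groups that did not overlap. Its log2 difference was 0.45 ± 0.13 (SE, limma adjusted p = 0.157) and 0.21 after the GC correction. Man2c1, an alpha-mannosidase, had a difference of 0.46 before and 0.17 after the correction. Snupn, the snurportin that carries spliceosomal particles into the nucleus, and Ube2q2, a ubiquitin-conjugating enzyme, both had a difference of -0.37, and of -0.31 and -0.26 after it.

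Taken in gene order, the 10 tested genes on each side of Csk had a median log2 difference of 0.22. Of these 20, 19 were positive, beside 48.7% of all tested genes. Their median GC content was 53.7%, beside 49.7% over all tested genes. After the GC correction the median difference was 0.14, with 14 of the 20 positive (50.2% of tested genes). These 20, and the wider sets that follow, include the 9 flanking genes and several of the list above. They are thus not a separate result. The 25 on each side had a median of 0.15 before and 0.01 after the correction, and the 50 on each side 0.00 and -0.02. Over these 20, 50 and 100 genes 0 passed by limma at the adjusted threshold, and 3, 12 and 22 had an unadjusted p under 0.05, beside 21.7% of all tested genes.

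**Figure D4:**
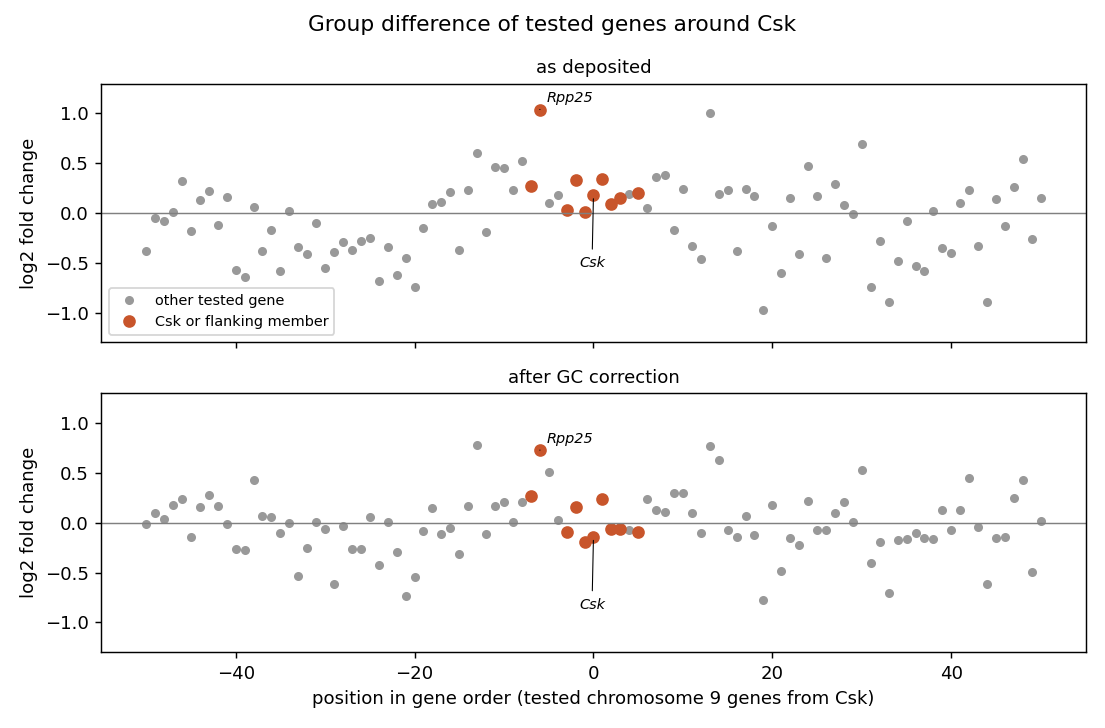
Log2 fold change, Csk(f/f)-labelled minus Csk(+/+), of tested chromosome 9 genes by their place in gene order from Csk, as deposited (top) and after the GC correction (bottom). Orange points are Csk and the 9 flanking genes, grey points other tested genes. Rpp25 is at 1.04 and 0.73 and Csk at 0.18 and -0.14.

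Csk acts through partners that bring it to the membrane, substrates and phosphatases that oppose or assist it. Of a list of 38 such genes 33 were tested, and by limma 0 passed over all genes. At an unadjusted p under 0.05 there were 4 higher (Blk, Dok1, Ptpn1 and Dok3) and 2 lower (Ptprc and Ptpn12) of the 33, beside 8.07% higher and 13.6% lower over all tested genes. The median difference was 0.16, and 0.04 after the GC correction. At the same unadjusted threshold after the correction 2 of the 33 were higher (Blk and Ptpn22) and 0 lower. Of all tested genes 9.96% reached it then, in either direction. Blk, a Src family substrate of Csk, had FPKM of 100, 121 and 102 in the controls and 173 and 179 in the floxed-labelled libraries. The groups did not overlap, with a log2 difference of 0.70 ± 0.13 (SE, limma adjusted p = 0.132), and 0.51 after the correction (limma adjusted p = 0.375). Without control replicate 3 the adjusted p by limma was 0.0398. In that fit 1 of the 33 listed genes passed, beside 4.05% of tested genes. Of the other Src family kinases tested, Lyn, Fyn and Lck had differences of -0.14, -0.26 and -0.11, and Fgr of 0.28. After the correction these were 0.08, -0.23, -0.32 and 0.15, in the same order.

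Among the opposing phosphatases, Ptprc, the CD45 phosphatase that removes the inhibitory phosphate set by Csk, had FPKM of 101, 107 and 124 in the controls and 89.0 and 60.1 in the floxed-labelled libraries. Its difference was -0.59 ± 0.19 (SE, limma adjusted p = 0.175) and -0.11 after the correction. Ptpn12, a phosphatase known to bind Csk, had 3.39, 3.14 and 2.72 in the controls and 1.91 and 1.55 in the floxed-labelled libraries, with a difference of -0.58 before and -0.29 after the correction. The adaptor Dok1, which recruits negative regulators, had a difference of 0.43 before and 0.13 after. Pag1, the membrane adaptor that anchors Csk, had 20.1, 21.6 and 12.4 in the controls and 14.2 and 11.7 in the floxed-labelled libraries. These overlapped only through control replicate 3, and the log2 difference was -0.42 with it and -0.65 without it (limma adjusted p = 0.335 and 0.0516). Pag1 passed in neither fit, where without that replicate 4.05% of tested genes did. After the GC correction, with all libraries, the Pag1 difference was -0.29 (limma adjusted p = 0.698). Matk, the kinase most closely related to Csk, had 12.2, 16.3 and 13.1 in the controls and 16.7 and 15.7 in the floxed-labelled libraries. Its difference was 0.22 before and -0.09 after the correction. Pag1 and Matk were chosen after their values were seen. Csk, at 378 FPKM or more, lay above Matk in every library.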

How the data were processed

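Gene expression was deposited by the authors as FPKM per gene, 1 column per library, made with TopHat2 2.0.8 and Cufflinks 2.1.1 on mm9 per the submitters' processing notes. The annotation, the strand setting and any scaling between libraries are not given in the sources used here. Each of the 5 value columns carries the title of 1 library, and 1 repeated header line was left out. Per the labels, libraries were made with the NEBNext Ultra RNA kit from TRIzol RNA.

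The filter kept genes that reached an FPKM of 1 in 2 or more libraries (10242). Group differences on log2(FPKM + 1) were fitted in R 4.3.3 by limma 3.58.1, its prior following mean expression, and p was adjusted over all genes kept (Benjamini-Hochberg). For the GC correction a lowess curve (span 0.3) was drawn per library through the deviations of all genes against the GC content of the longest GENCODE M21 transcript, known for 98.8% of tested genes, and was taken off. Gene order and promoter sequences came from RefSeq GRCm38.p6 by symbol, and no mm9 coordinates were used. Depth was estimated from the modal ratio of the lowest values, so fragment numbers are approximate. The fit was tested on simulated data with independent noise. These held no GC trend and no library of low weight, so that test does not bear on either.

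Named genes were the 10, the 5 most like Csk, and from a list with no gene past the threshold its 4 genes of lowest p. Beyond this rule the genes directly beside Csk were named. From the neighbourhood and partner lists so were those at an unadjusted limma p under 0.05, before or after the GC correction. The tested Src family kinases, Pag1 and Matk of the list of Csk partners were named as well. The members and lists were chosen with earlier results of these data known. Alternatives covered pseudocount, filter, scaling, prior, library weights, GC content, the replicate block and each library left out.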

Additional observations from a re-analysis of the deposited data

How the results depend on the processing

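Over 22 alternative settings Scamp2, Edc3 and Ppcdc kept their direction and did not pass, as did Csk in 15. The sign of Csk turned with the GC correction (-0.14), and with it and each library left out it was -0.19 to -0.08, where without the correction it was 0.13 to 0.23. Rpp25 stayed positive in the 21 settings that gave it a value (a filter at 5 FPKM removed it). Its adjusted p by limma was under the threshold with array weights, with the replicate block and without Csk(+/+) replicate 3 (0.0259, 0.0472 and 0.0386, range over all settings 0.0259 to 1). In the last 2 of these both controls left are below the filter, so those calls do not support a difference. With array weights the floxed-labelled pair alone would have met the filter, and 6.55% of tested genes passed, so that call gives no support either. Thus the number of the 10 genes past the threshold was 1 in these 3 settings and 0 otherwise. The background moved as well, from 8 genes to 671 with array weights, 518 with the replicate block (of 10147 tested, 115 with the GC correction) and 5 with no filter. With a library left out it was 5 to 411, and 5 to 40 with the GC correction, the highest value in both without Csk(+/+) replicate 3.

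With the GC correction the differences of Ulk3, Mpi, Clk3, Arid3b and Sema7a turned to -0.19, -0.09, -0.06, -0.06 and -0.09. With array weights Ulk3 and Arid3b turned to -0.13 and -0.03. With a library left out the range was -0.18 to 0.13 for Ulk3, -0.06 to 0.11 for Mpi, -0.09 to 0.35 for Arid3b and -0.03 to 0.41 for Sema7a, and with the GC correction as well -0.33 to -0.07, -0.21 to 0.03, -0.25 to 0.10 and -0.27 to 0.05, with -0.13 to -0.01 for Clk3, which was 0.03 to 0.17 without the correction. The median of the 25 tested genes on each side of Csk moved from 0.15 to 0.01 with the correction. The cause of these changes was not tested.

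Replicates 1 and 2 of both groups share a number but no stated source, so they were not taken as pairs. Their deviations from the group means correlated at -0.132 and 0.107. With 2 floxed-labelled libraries the deviations of replicate 1 mirror those of replicate 2, so these values cannot decide on pairing. With the replicate block, on those 4 libraries, Csk was 0.19, Rpp25 1.17, Ulk3 -0.18, Arid3b -0.09 and Sema7a -0.03, and with the block and the GC correction Csk was -0.08, Ulk3 -0.33, Clk3 -0.02, Arid3b -0.25 and Sema7a -0.27. At the depth of Rpp25 counting alone gives each library a relative SD of 8.8% to 24%.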
